A study of Mus musculus with 1829 samples.

Results

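Insulin-specific CD4+ T cells from the lymph nodes of NOD/ShiLtJ mice were compared at 13 and at 7 weeks of age. NOD/ShiLtJ is an inbred strain that develops autoimmune diabetes spontaneously. The cells were stained with tetramers of IAg7, the MHC class II protein of NOD mice, that carried residues 12-20 or residues 13-21 of the insulin B chain, and were sorted singly into wells. All lymph node cells whose labels gave 13 or 7 weeks were taken: 346 of the 1829 cells of the series, 142 from 3 animals of 13 weeks (M2, M3 and M4) and 204 from 5 animals of 7 weeks (M2, M3, M7, M10 and M11). The 13-week cells were 72 stained with the 12-20 and 70 with the 13-21 tetramer, and the 7-week cells were 101 and 103. The labels give no treatment at either age, and they do not say which lymph node was used or the sex of the mice. An animal number that occurs at both ages names different mice.

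A tetramer of peptide and class II molecule binds T cells by their antigen receptor, so the sorted cells are defined by what they recognise. In lymph nodes draining an inflamed tissue, naive T cells enter by means of receptors such as Ccr7. Antigen-driven cells there express genes of antigen receptor signalling, co-stimulation and cytokine response. Cytokines act through JAK kinases and STAT transcription factors, and Socs3, itself induced by STAT factors, is a feedback inhibitor of that signalling.

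Transcripts were measured in each well by quantitative PCR with 96 assays. Expression is given as log2Ex, 24 minus the cycle of threshold crossing (Ct), set to 0 where Ct was 24 or more or where the export software had called the reaction a fail. A well was counted first where at least 20 of the 96 assays were detected, which held for 189 of the 346 wells (54.6%, with a Clopper-Pearson exact interval at 95% of 49.2 to 59.96%). These wells detected a median of 34 assays, and the other 157 a median of 9. A unit is the mean over the wells of 1 animal and 1 tetramer, with at least 5 wells, so a difference in log2Ex between units holds both the share of wells with a transcript and its level in them and is not a fold change. The share of wells with a transcript and its level where detected are therefore also shown apart in a figure for the genes tested. In the text they are given for some genes only. No chip held lymph node cells of more than 1 animal, so that animal and chip cannot be told apart in these cells; the chip of M3 of 7 weeks also held islet cells of other mice.

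The share of wells with 20 or more assays varied more among the 7-week animals than between the ages. In 12-20 cells of 13 weeks it was 10 of 24 wells in M2 (41.7%, 22.1 to 63.4%), 8 of 24 in M3 (33.3%, 15.6 to 55.3%) and 11 of 24 in M4 (45.8%, 25.6 to 67.2%). In 13-21 cells of 13 weeks it was 13 of 24 in M2 (54.2%, 32.8 to 74.4%), 18 of 22 in M3 (81.8%, 59.7 to 94.8%) and 23 of 24 in M4 (95.8%, 78.9 to 99.9%). At 7 weeks M2 had 17 and 16 of 24 wells for the tetramers 12-20 and 13-21, M3 had 20 and 23 of 24, and M7 had 9 of 22 and 21 of 24. The 7-week animals M10 and M11 had 0 such wells in any of their 4 units of 14 to 17 cells, which allows shares of up to 17.6 to 21.4% by the limit of 3 counts used for counts of 0, with exact upper bounds of 19.5 to 23.2%. By animal the share averaged 58.8% ± 11.5 at 13 weeks (SD, n = 3) and 44.5% ± 41.7 at 7 weeks (SD, n = 5), a difference of 14.3 percentage points (exact permutation test over animals, two-sided, p = 0.643, adjusted over 2 tests 0.643; the smallest p possible is 0.0357). Intervals and limits here cover counting error alone, as the wells of a mouse share their source.

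**Figure D1:**
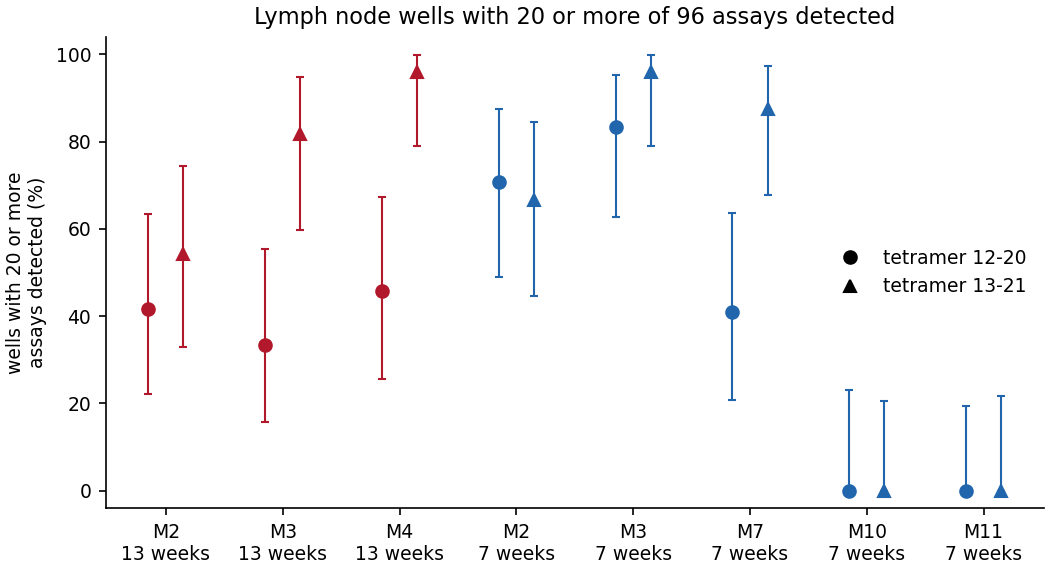
Percent of lymph node wells with 20 or more of 96 assays detected (y axis) for each animal (x axis) and tetramer (circles 12-20, triangles 13-21), red for 13 and blue for 7 weeks, with exact 95% binomial intervals. The 7-week animals M10 and M11 are at 0, and the other units run from 33.3 to 95.8%.

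Wells with 20 or more assays thus came from 3 animals at each age, 83 wells at 13 and 106 at 7 weeks, in 6 units each. They detected 34.9 ± 3.29 assays at 13 weeks and 33.8 ± 2.23 at 7 weeks (SD, n = 3 animals; exact permutation p = 0.600, two-sided, adjusted over 2 tests 0.643; 3 against 3 animals cannot go below 0.100). Without the 13-week animal M4 the difference of 1.14 assays turned to -0.74. Cd4 was detected in 95.2% of these wells at 13 and 93.4% at 7 weeks, and Cd3e in 83.1% and 96.2%. In the wells with fewer assays these shares were 5.08 to 6.12% for Cd4 and 2.04 to 6.78% for Cd3e. No well repeated the values of another among the 189.

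Across the 72 genes tested in wells with 20 or more assays, 0 differed between 13 and 7 weeks at an adjusted p under 0.05 (0.0%; limma, age and tetramer as terms and the animal as a random block, Benjamini-Hochberg adjustment). At an unadjusted p under 0.05 there were 10, of which 6 were higher at 13 weeks (8.33% of genes tested) and 4 lower (5.56%). The higher ones were Socs3, Tnfrsf1a, Icam1, Stat3, Irf1 and Cd86, and the lower ones Nr4a1, Ccr6, Cd3e and Ifi44. Over all genes tested the median difference was 0.26 and 45 were above 0. The smallest adjusted p was 0.0615, that of Socs3, and the number of genes past 0.05 ran from 0 to 5 over the alternatives tried. The 10 genes are described as not passing.

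**Figure D2:**
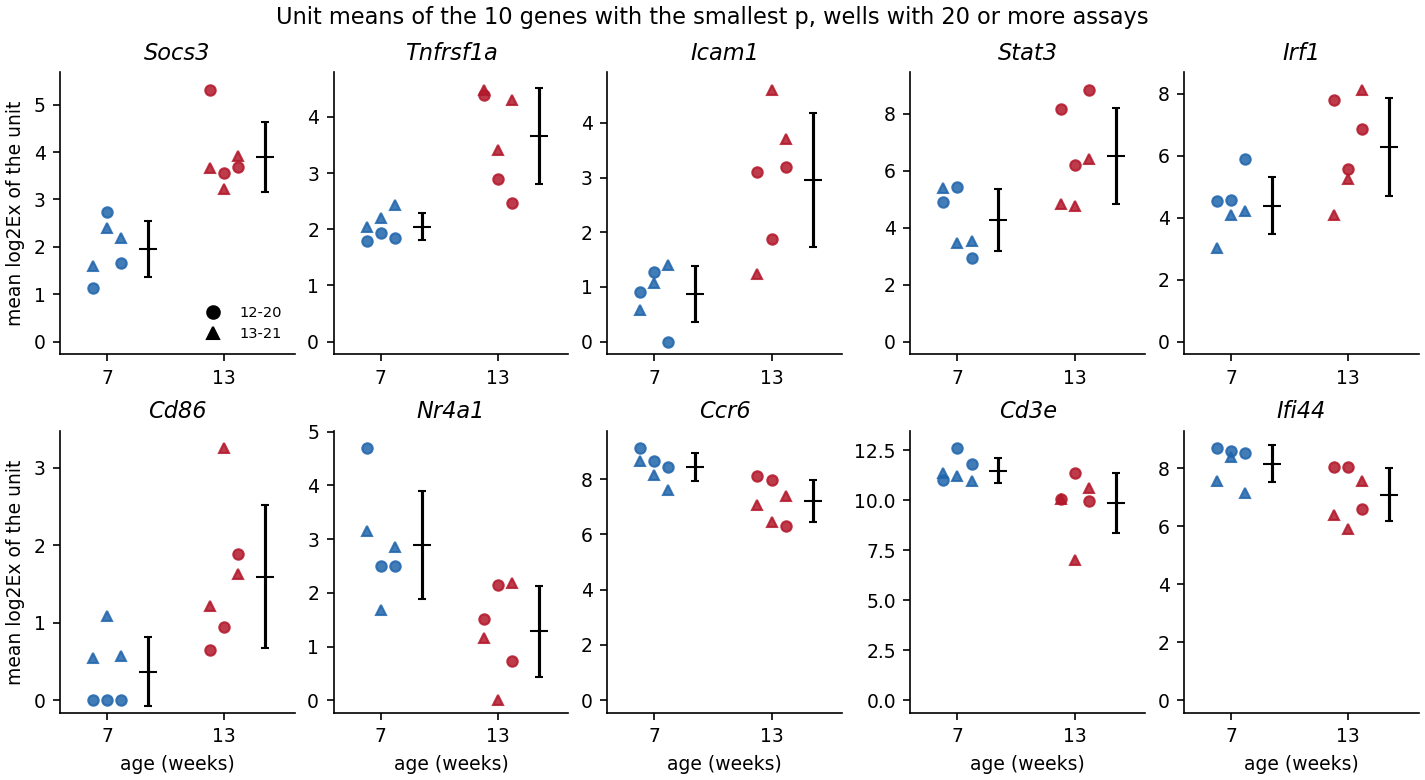
Mean log2Ex of each unit (y axis) at 7 and 13 weeks (x axis) for the 10 genes with the smallest unadjusted p; circles are 12-20 and triangles 13-21 units of 3 animals an age, and bars are mean ± SD over 6 units. In Socs3 and Tnfrsf1a every 13-week unit lies above every 7-week unit.

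Of these 10 genes, those higher at 13 weeks included a transcription factor of cytokine signalling, its feedback inhibitor and a cytokine receptor, and the stretches before their starts are shown for that reason. The letters searched for were TTCNNNGAA, the palindrome that STAT factors bind, which reads the same on both strands, in the 250 bases before each start in RefSeq's GRCm38.p6 annotation. Of the 10 genes 9 had a start in the table and 5 of them held it. The windows give up to 26 bases on each side of it, 5′ to 3′ on the strand of the gene, with the matching bases in capitals.
Socs3: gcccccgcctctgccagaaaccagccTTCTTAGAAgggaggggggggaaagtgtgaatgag
Tnfrsf1a: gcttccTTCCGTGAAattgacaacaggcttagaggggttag
Icam1: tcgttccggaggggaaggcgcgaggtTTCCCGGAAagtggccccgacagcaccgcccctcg
Irf1: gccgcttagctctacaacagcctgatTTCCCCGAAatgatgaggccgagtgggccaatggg

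The Socs3 window lies at chr11:117969486-117969546 on the minus strand, and its match begins 154 bases before the start. That of Tnfrsf1a lies at chr6:125349473-125349513 on the plus strand, with the match 244 bases before the start, near the edge of the searched stretch. In Icam1, at chr9:21015872-21015932 on the plus strand, the match began 42 bases before the start. In Irf1, at chr11:53769898-53769958 on the plus strand, it began 90 bases before 1 of 2 annotated starts. Ccr6, on the lower side, held 2 matches before 1 of its 2 starts, and Stat3, Nr4a1, Cd3e and Ifi44 held none in this stretch. The same letters stood before 23.2% of the 56 tested genes with a start in the table, 18.7% of 75 genes of the panel and 8.13% of all 27025 genes. The match is a description of these letters and not of binding, and the genes were chosen by their p.

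Socs3, the feedback inhibitor of JAK and STAT signalling, was the gene with the smallest p. Its unit means at 13 weeks were 5.31 and 3.65 in M2, 3.56 and 3.22 in M3 and 3.69 and 3.92 in M4 (12-20 first, then 13-21). At 7 weeks they were 1.14 and 1.61 in M2, 2.74 and 2.40 in M3 and 1.66 and 2.18 in M7. The 2 ages did not overlap, a separation that 2 of the 72 genes showed upward (2.78%) and 0 downward (0.0%). The mean was 3.89 ± 0.73 at 13 and 1.95 ± 0.59 at 7 weeks (SD, n = 6 units of 3 animals), a difference of 1.94 (SE 0.47, 95% interval 0.95 to 2.93, limma adjusted p = 0.0615). Socs3 was detected in 56 of 83 wells at 13 weeks and 43 of 106 at 7 weeks, and its level where detected was 5.86 ± 0.83 and 4.82 ± 0.94 (SD, n = 6). The unit of M2 stained with 12-20 was the highest at 13 weeks, and without that animal the difference was 1.64.

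Stat3, the transcription factor downstream of interleukin-6 and interleukin-21, averaged 6.53 ± 1.69 at 13 and 4.28 ± 1.09 at 7 weeks (SD, n = 6). Its units were 8.17 and 4.83, 6.19 and 4.75, and 8.83 and 6.40 in M2, M3 and M4 of 13 weeks. They were 4.88 and 5.38, 5.44 and 3.47, and 2.95 and 3.54 in M2, M3 and M7 of 7 weeks. The 12-20 units of 13 weeks were above every unit of 7 weeks, and 2 of the 3 13-21 units lay among those of 7 weeks. Such a separation by tetramer was not counted over the other genes. The change in 13-21 minus that in 12-20 cells was -2.11 and did not pass (limma, interaction of age and tetramer, adjusted p = 0.661). The difference over both tetramers was 2.25 (SE 0.70, limma adjusted p = 0.101), with 60 of 83 wells against 53 of 106 and a level where detected of 8.68 and 8.66. It depended on the quality call of the reactions: among wells with a Ct under 24, 16 of 76 were called fail at 13 weeks and 43 of 96 at 7 weeks, and with calls ignored the difference was 0.88 (adjusted p = 0.377).

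Irf1, a transcription factor induced by interferons and other STAT-activating cytokines, averaged 6.28 ± 1.57 and 4.39 ± 0.93 (SD, n = 6), a difference of 1.89 (SE 0.68, limma adjusted p = 0.135). The 13-week units ran from 4.10 to 8.13 and those of 7 weeks from 3.01 to 5.89, so the ages overlapped. It was detected in 57 of 83 and 49 of 106 wells. Of wells with a Ct under 24, 24 of 81 were called fail at 13 and 52 of 101 at 7 weeks, and with calls ignored the difference was 0.56 (adjusted p = 0.572).

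Tnfrsf1a, a receptor for tumour necrosis factor, had unit means of 4.40 and 4.48 in M2, 2.89 and 3.42 in M3 and 2.47 and 4.31 in M4 at 13 weeks. At 7 weeks they were 1.80 and 2.04 in M2, 1.93 and 2.21 in M3 and 1.85 and 2.43 in M7. The 7-week units lay close together, and the lowest 13-week unit was just above the highest of them. The mean was 3.66 ± 0.86 against 2.04 ± 0.24 (SD, n = 6), a difference of 1.62 (SE 0.43, limma adjusted p = 0.0638), with 38 of 83 and 28 of 106 wells. Many more wells had a Ct under 24 that was called a fail, 35 of 73 at 13 and 56 of 84 at 7 weeks, and with calls ignored the difference was 1.54 (adjusted p = 0.159). The other receptor for tumour necrosis factor on the panel, Tnfrsf1b, differed by 0.66.

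Icam1, the adhesion molecule by which T cells and antigen-presenting cells hold to each other, averaged 2.95 ± 1.23 at 13 and 0.88 ± 0.52 at 7 weeks (SD, n = 6). Its 13-week units were 3.09 and 1.23 in M2, 1.87 and 4.60 in M3 and 3.20 and 3.71 in M4. Its 7-week units were 0.91 and 0.59 in M2, 1.27 and 1.08 in M3 and 0.00 and 1.40 in M7. A single 13-week unit, that of M2 and 13-21, lay within the range of 7 weeks. The difference was 2.07 (SE 0.59, limma adjusted p = 0.0721), with 31 of 83 and 13 of 106 wells and the same level where detected, 8.29 and 8.26. Without the 13-week animal M2 it was 2.47, with an adjusted p of 0.0283. Of wells with a Ct under 24, 41 of 72 were called fail at 13 and 67 of 80 at 7 weeks, and with calls ignored the difference was 1.53 (adjusted p = 0.159).

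Cd86, a co-stimulatory ligand of antigen-presenting cells, was detected in 16 of 83 wells at 13 weeks (19.3%, exact 95% interval 11.4 to 29.4%) and 6 of 106 at 7 weeks (5.66%, 2.11 to 11.9%). Its units were 0.64 and 1.21, 0.95 and 3.25, and 1.89 and 1.62 in M2, M3 and M4 of 13 weeks. The 3 12-20 units of 7 weeks were at 0, and the 13-21 units were 0.54, 1.08 and 0.57. The difference was 1.23 (SE 0.44, limma adjusted p = 0.135). The intervals of the shares cover counting error alone, over wells pooled from several animals, and do not compare the ages. Of the 16 wells of 13 weeks with Cd86, 6 were in the 13-21 unit of M3.

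Cd86 is also a marker of other cells that a sort of CD4+ T cells could hold. Of 18 genes listed for such cells 4 were on the panel, Cd86, Cd80, Cd40 and Cd8a. Cd8a, a chain of the CD8 co-receptor, was at 0 in all wells, of which 0 of 83 and 0 of 106 with 20 or more assays allow shares of up to 3.61 and 2.83%. Cd80, the other ligand of Cd28, was detected in 8 of 83 wells at 13 and 2 of 106 at 7 weeks, and Cd40 in 4 and 2. The summed log2Ex of the 4 genes ran from 0.95 to 4.60 over the 13-week units (median 2.44) and from 0.00 to 1.36 over those of 7 weeks (median 0.53). This sum includes Cd86, which was chosen by its p, so it is not a separate result. The means at 13 and 7 weeks were 1.59 and 0.37 for Cd86, 0.59 and 0.10 for Cd80 and 0.34 and 0.16 for Cd40. The markers of B, myeloid and NK cells had no assay.

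The wells with Cd86 at 13 weeks were mostly wells in which the T cell transcripts were incomplete. Cd4 and Cd3e were both detected in 66 of 83 wells at 13 weeks and in 97 of 106 at 7 weeks. Among the 17 wells of 13 weeks without both, Cd86 was detected in 12 and Cd80 in 6, against 4 and 2 of the 66 wells with both. The same 17 wells held Icam1 in 12, Zap70, the kinase of T cell receptor signalling, in 1, Ccr7 in 2 and Cd28 in 9. Of the 66, 19 held Icam1, 42 Zap70, 43 Ccr7 and 52 Cd28. Of the 9 wells of 7 weeks without both, 1 held Cd86, 2 held Cd4 and 5 held Cd3e. Of the 17 of 13 weeks, 13 held Cd4 and 3 held Cd3e, so that the wells without both were not alike at the 2 ages. The 17 wells came from all 6 units, with 7 of them in the 13-21 unit of M3. This split of the wells was made after the values were seen, and what the wells contained beyond these transcripts was not tested.

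**Figure D3:**
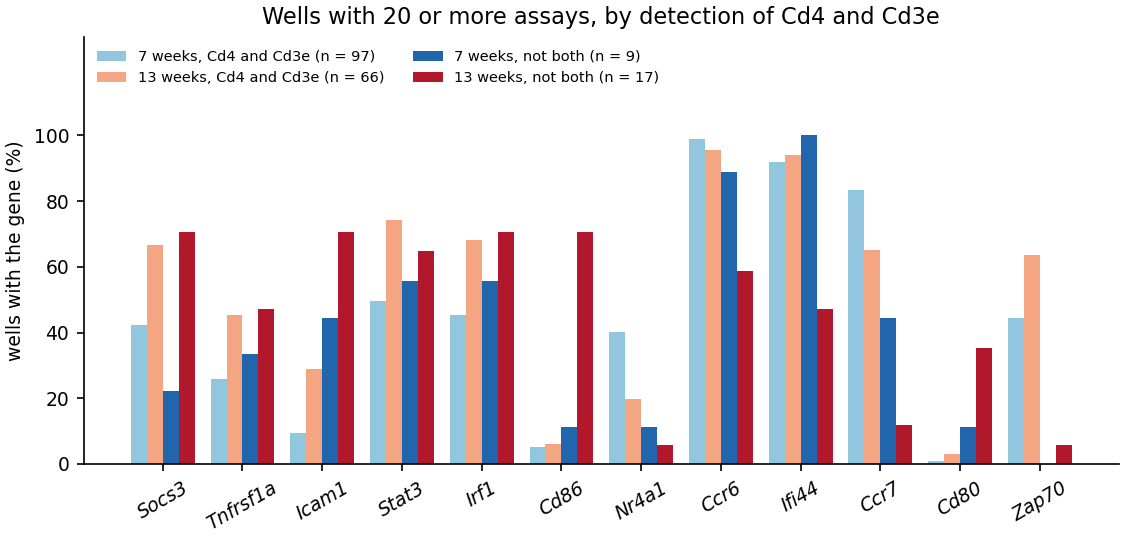
Percent of wells with 20 or more assays in which each gene was detected (y axis), by age and by whether Cd4 and Cd3e were both detected; bars are shares of wells pooled over animals, with no error. Cd86 was found in 12 of the 17 wells of 13 weeks without both transcripts and in 4 of the 66 with both.

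The leading genes divided in wells with both Cd4 and Cd3e. There Socs3 differed by 1.91, Tnfrsf1a by 1.60, Stat3 by 2.43, Irf1 by 1.83 and Nr4a1 by -1.67, close to their values in all wells with 20 or more assays. Icam1 was at 1.40, Cd86 at 0.14, Ccr6 at -0.63 and Ifi44 at -0.18, and Ccr7 at -1.22. With fewer wells the smallest adjusted p of these was 0.243. In wells without Cd86, Cd80, Cd40 and Cd8a, Socs3 was at 1.80, Tnfrsf1a at 1.25, Icam1 at 1.11, Stat3 at 1.94, Irf1 at 1.73 and Nr4a1 at -1.81. In these wells Ccr6 was at -0.63, Cd3e at -0.16 and Ifi44 at -0.41.

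Nr4a1, an immediate early gene of antigen receptor signalling also called Nur77, was the gene with the smallest p on the lower side. Its 13-week units were 1.51 and 1.15 in M2, 2.14 and 0.00 in M3 and 0.72 and 2.19 in M4. Its 7-week units were 4.69 and 3.14 in M2, 2.49 and 1.67 in M3 and 2.49 and 2.86 in M7. Only the 13-21 unit of M3 at 7 weeks fell within the range of 13 weeks. The mean was 1.29 ± 0.85 against 2.89 ± 1.01 (SD, n = 6), a difference of -1.61 (SE 0.56, limma adjusted p = 0.135). It was detected in 14 of 83 and 40 of 106 wells, none of them with a failed call, and in 0 of 157 wells with fewer assays (up to 1.91%). Without the 7-week animal M2, whose units were the highest, the difference was -1.09.

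Cd3e, part of the CD3 complex of the T cell receptor, averaged 9.84 ± 1.50 at 13 and 11.48 ± 0.62 at 7 weeks (SD, n = 6), a difference of -1.64 (SE 0.64, limma adjusted p = 0.175). The 13-21 unit of M3 at 13 weeks, at 6.99, was far below the others of that age, which ran from 9.97 to 11.37, and without that animal the difference was -1.30. It was detected in 69 of 83 and 102 of 106 wells, at a level of 11.68 and 11.90 where detected. The co-receptor Cd4 went the other way, 9.24 ± 1.29 against 8.32 ± 0.89 (SD, n = 6), with a difference of 0.92 (SE 0.63, limma adjusted p = 0.583).

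Ccr6, a chemokine receptor of Th17 cells and other memory cells, averaged 7.22 ± 0.76 and 8.44 ± 0.52 (SD, n = 6), a difference of -1.22 (SE 0.44, limma adjusted p = 0.135). Ifi44, an interferon-stimulated gene, averaged 7.10 ± 0.92 and 8.17 ± 0.64 (SD, n = 6), a difference of -1.07 (SE 0.46, limma adjusted p = 0.263). Both assays were also detected in most wells with fewer than 20 assays, Ccr6 in 125 and Ifi44 in 115 of 157, where Cd4 was found in 9. They belong to 10 assays found in at least 50% of those wells, with Gapdh, Ccr2, Ifit3, Isg15, Il25, Cxcl10, Bcl2 and Gsk3a. Of these 10, 9 were below 0 at 13 weeks in the wells with 20 or more assays, beside 27 of all 72 genes tested. The part of such signal in these differences was not tested.

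**Figure D4:**
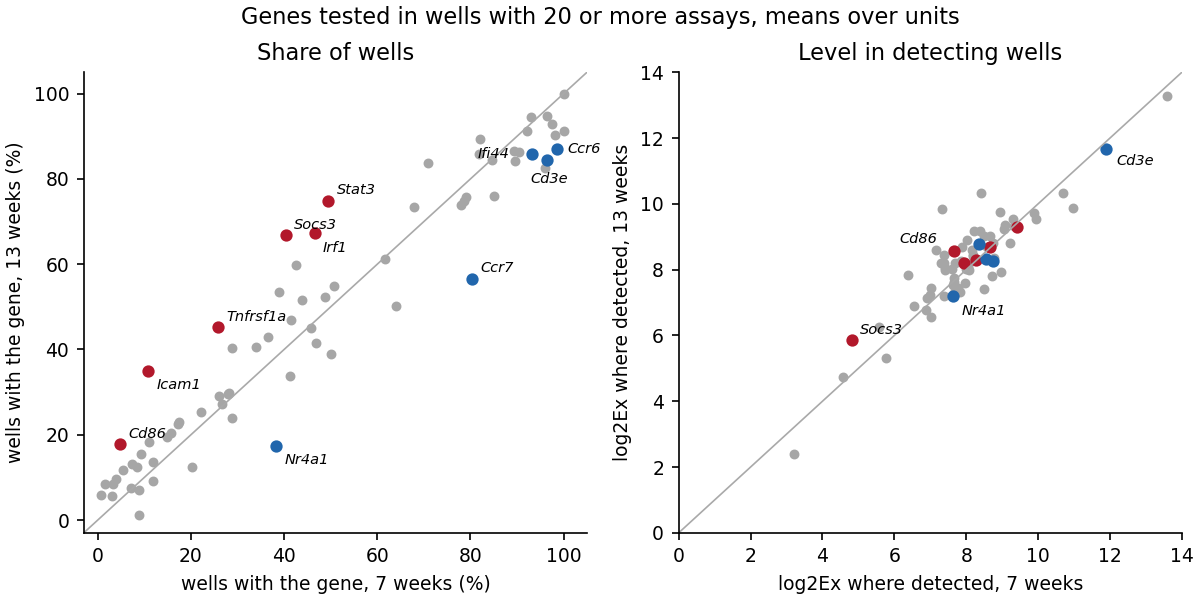
Left, mean percent of wells with each tested gene at 7 weeks (x axis) and 13 weeks (y axis); right, mean log2Ex in the wells that detected it; each point is 1 of 72 genes averaged over units, the line marks equal values, and the 10 leading genes and Ccr7 are coloured red where higher and blue where lower at 13 weeks. Socs3, Stat3, Irf1, Tnfrsf1a and Icam1 lie above the line on the left and close to it on the right, apart from Socs3.

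Ccr7, which brings naive and central memory T cells into lymph nodes, had the next smallest p after these 10. It averaged 4.95 ± 2.16 at 13 and 6.71 ± 0.59 at 7 weeks (SD, n = 6), a difference of -1.75 (SE 0.85, 95% interval -3.57 to 0.06, limma adjusted p = 0.372). The 13-week units were spread widely, at 7.39 and 3.93 in M2, 7.23 and 2.99 in M3 and 2.40 and 5.78 in M4. Those of 7 weeks were all between 6.13 and 7.77. Of the 6 units of 13 weeks 4 were thus below every unit of 7 weeks, and the other 2 lay among them. This partial separation was not counted over the other genes. Ccr7 was detected in 45 of 83 and 85 of 106 wells. Its level where detected was 8.78 ± 0.34 at 13 and 8.35 ± 0.25 at 7 weeks (SD, n = 6). The lower mean at 13 weeks thus lay in the share of wells and not in the level. Il7r, the receptor of the survival cytokine interleukin-7, differed by -0.57 (SE 0.59) and Bcl2, which protects cells from death, by -0.37. Of 3 tested genes of naive, central memory and recirculating cells 0 were called and all 3 were below 0 (median -0.57, beside 0.26 over all genes tested). In wells with both Cd4 and Cd3e the median of the 3 was -0.09 (0.32 over all genes tested there), and in wells without Cd86, Cd80, Cd40 and Cd8a Il7r was at 0.01 and Ccr7 at -1.16.

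The genes of T helper subsets showed no difference that passed. Of 8 Th1 and effector genes 0 were called, 6 were above 0 and the median was 0.30. The base for this and the following lists is 45 of all 72 genes tested above 0, 27 below 0 and a median of 0.26. Ifng, the signature cytokine, was found in 9 of 83 and 14 of 106 wells and differed by -0.33 (95% interval -1.49 to 0.83). Tbx21, the Th1 master regulator, differed by 0.61 (-0.35 to 1.56), the chemokine receptor gene Cxcr3 by 0.73 (-0.78 to 2.25) and the cytokine gene Tnf by 0.00 (-0.90 to 0.90). Tnf was at -0.66 with calls ignored. With units centred on their means, 4 of the 8 were above 0, beside 38 of all 72 genes tested.

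Of 4 tested follicular helper genes 0 were called and 3 were above 0 (median 0.65). Icos, a co-stimulator that T cells gain on activation, averaged 3.40 ± 1.20 and 2.36 ± 0.84 (SD, n = 6), a difference of 1.04 (95% interval -0.27 to 2.35, limma adjusted p = 0.471). Pdcd1, an inhibitory receptor, differed by 0.72 (-0.64 to 2.07), the transcription factor gene Bcl6 by 0.57 (-0.71 to 1.86) and the cytokine gene Il21 by -0.10 (-1.03 to 0.84). Il21 was detected in 6 of 83 and 10 of 106 wells.

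Of 3 tested regulatory T cell genes 0 were called, with a median of 0.41. Foxp3, which defines regulatory T cells, was found in 17 of 83 and 16 of 106 wells and differed by 0.58 (95% interval -0.71 to 1.86). Il2ra, the alpha chain of the interleukin-2 receptor, differed by 0.41 (-1.05 to 1.87) and Ctla4, an inhibitory receptor, by 0.03 (-1.24 to 1.30). Il10, an anti-inflammatory cytokine, was found in 3 and 2 wells and was too rare to test. Of 3 inhibitory receptors and ligands, Pdcd1, Ctla4 and Cd274, 0 were called (median 0.29).

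Of 4 tested Th2 genes 0 were called, 2 were above 0 and the median was 0.02. Of 2 tested Th17 genes, Stat3 and Ccr6, 0 were called. The cytokines Il2, Il4 and Il17a were detected in 0 of 83 and 0 of 106 wells, which allows shares of up to 3.61 and 2.83%; the labels name no stimulation of the cells before the sort. Of 6 activation and memory genes 0 were called and 4 were below 0 (median -0.15): Nr4a1, Irf4 at -0.76, the co-stimulatory receptor Cd28 at -0.26 and the adhesion receptor Cd44 at -0.05 (95% interval -0.85 to 0.75).

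Of 11 tested interferon-stimulated genes 0 were called, 4 were above 0 and the median was -0.06. They went both ways, from Irf1 at 1.89 to Ifit3 at -1.01 and Ifi44 at -1.07. Of 8 chemokine receptors 0 were called and 5 were above 0 (median 0.28), from Ccr7 to Cxcr3, and of 8 cytokine receptors 0 were called and 6 were above 0 (median 0.48), with Tnfrsf1a the highest. Of 4 T cell identity genes 0 were called: Cd4, Cd3e, Cd28 and Zap70, which differed by 1.12. The lists were chosen with earlier results of these data known.

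The age difference of 1 of the 72 genes differed between the tetramers (1.39%; limma, interaction of age and tetramer). It was Ifngr1, the ligand-binding chain of the interferon gamma receptor. In 13-21 cells its units were 5.38, 5.21 and 6.40 in M2, M3 and M4 of 13 weeks and 2.17, 2.14 and 2.31 in M2, M3 and M7 of 7 weeks. In 12-20 cells they were 2.74, 0.71 and 3.14 at 13 weeks and 4.24, 5.12 and 1.61 at 7 weeks. The gene was chosen by the fit to these values, so the separation of its 13-21 units by age adds no support. How many genes separate in this way was not counted. The change was 3.46 in 13-21 and -1.46 in 12-20 cells, a difference of 4.92 (SE 1.09, 95% interval 2.59 to 7.24, limma adjusted p = 0.0305). It was between 4.16 and 5.99 when 1 animal was left out. The adjusted p was 0.0682 without the animal as a block and lay between 0.0569 and 0.270 without M2, M3 or M4 of 13 weeks or M2 or M3 of 7 weeks, so that the call was kept only without M7 of 7 weeks. Over all wells the same interaction was 4.05 (SE 0.83, limma adjusted p = 0.0154), 1 of 67 genes (1.49%), with an adjusted p of 0.858 without the block, 0.0514 without the 7-week animal M11, 0.0670 without M2 of 7 weeks, 0.132 without M3 and 0.135 without M4 of 13 weeks. Without the 13-week animal M2, 11 genes passed there. The Ifngr1 difference over both tetramers was 0.997 (SE 0.96, limma adjusted p = 0.617).

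**Figure D5:**
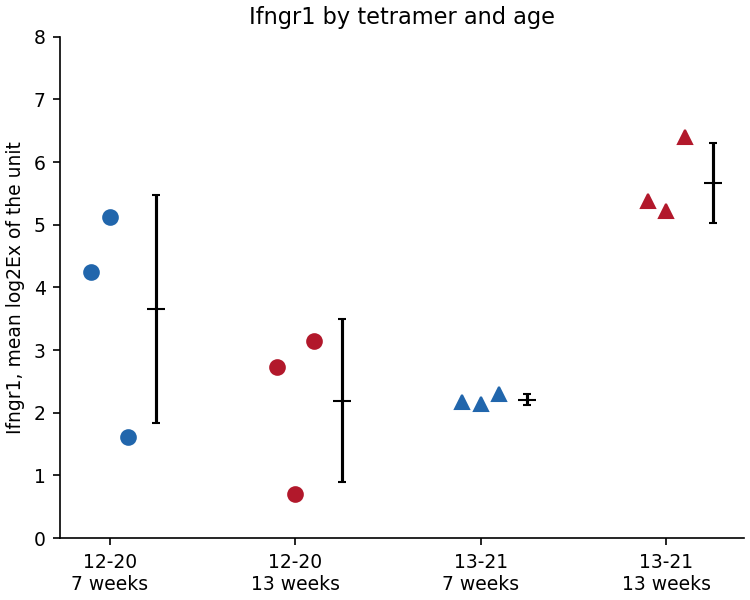
Mean log2Ex of Ifngr1 in each unit (y axis) by tetramer and age (x axis) in wells with 20 or more assays; circles are 12-20 and triangles 13-21, blue 7 and red 13 weeks, and bars are mean ± SD over 3 animals. The 13-21 units of 13 weeks are at 5.21 to 6.40 and those of 7 weeks at 2.14 to 2.31. The gene was chosen by the fit to these values.

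Over all 346 wells, in 6 units of 13 and 10 of 7 weeks, 0 of 67 genes passed an adjusted p of 0.05 (0.0%; limma) and 0 an unadjusted p of 0.05. The median difference was 0.72, with 62 of the 67 genes above 0. The 4 units of M10 and M11 lay near 0 for most genes, and the correlation of units of the same animal was 0.667, against 0.140 in wells with 20 or more assays. Socs3 averaged 2.38 ± 0.90 at 13 weeks (SD, n = 6) and 0.97 ± 1.02 at 7 weeks (SD, n = 10 units), a difference of 1.41 (SE 0.69, limma adjusted p = 0.734). Icam1 differed by 1.45, Tnfrsf1a by 1.32 and Stat3 by 1.80, and Nr4a1 by -0.53. Ccr6 and Ifi44, lower at 13 weeks in wells with 20 or more assays, were at 0.75 and 0.76 here, and Cd3e at 0.72. Over all wells a gene's mean also holds the share of wells that detected few assays.

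The change with age was compared with that in islets of the same animals. Over all wells, islet units of 7 weeks came from 4 of the 5 animals of that age. In wells with 20 or more assays 6 of 79 genes differed in their change (7.59%; limma, interaction of age and tissue), but the 7-week islet units with 5 or more such wells were the 2 of animal M2. Tnf changed by 0.00 in lymph node and -3.23 in islets, and the difference fitted with the animal as a block, which need not equal that of the unit means, was 3.31 (SE 0.91). The others had the lower change in lymph node. Cd274, the ligand of Pdcd1, changed by 0.29 in lymph node against 4.24 in islets. The interleukin-4 receptor gene Il4ra changed by 0.55 against 4.71 and Nfkb1 by 0.24 against 3.41. The sign differed between the tissues for the interferon regulatory factor gene Irf7, at -0.48 against 2.88. It also did for Tnfaip3, an inhibitor of NF-kappa B signalling, at -1.20 against 2.22. The number of genes became 0 after units were centred and 0 without the block. It was 18 without the 13-week animal M3, 1 without M4 of 13 weeks and 0 without M2 of 13 weeks or M3 or M7 of 7 weeks; without M2 of 7 weeks no 7-week islet unit is left and it could not be fitted. Over all wells it was 27 of 79 (34.2%), all with the lower change in lymph node. In that fit 74 of the 79 genes, called or not, were below 0 (median -1.40). The 7-week islet units there held even Cd4 at only 2.39 ± 4.47 (SD, n = 8 units). The number of genes called lay between 4 (without M4 of 13 weeks) and 57 (without M2 of 7 weeks) over the 8 animals, each of which moved it by more than 1.5 times.

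One further lymph node unit, 12-20 cells of animal M3 of 8 weeks, had 11 wells with 20 or more assays on another chip. Its log2Ex was 2.54 for Socs3, 0.83 for Tnfrsf1a, 1.47 for Icam1, 4.51 for Stat3 and 1.34 for Nr4a1. Its Socs3 and Stat3 were within the range of 7 weeks, its Nr4a1 was below that range and within that of 13 weeks, its Icam1 was just above the range of 7 weeks and within that of 13 weeks, and its Tnfrsf1a was below both ages. For the rest of the 10 genes it was 5.72 for Irf1, 0.95 for Cd86, 7.60 for Ccr6, 11.44 for Cd3e and 6.40 for Ifi44. Irf1, Cd86 and Ccr6 were within the ranges of both ages, though the 12-20 units of 7 weeks were at 0 for Cd86. Cd3e was within the range of 7 weeks alone, and Ifi44 within that of 13 weeks alone. With 1 unit there was no test.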

How the data were processed

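The deposited values are Ct, in cycles, in 1 table per chip, exported by the authors with Fluidigm Real-Time PCR Analysis 4.0.1 per the file headers, with the baseline set to linear derivative, the crossing threshold found automatically for each chip and reactions scored against a quality threshold of 0.65. Later steps of the study (SINGuLAR toolset, scripts in R) are named in its design text, their versions not, and these exports precede them. Of the chips used, 116 wells matched no sample by name and were left out. Of 11113 Ct values under 24 in the 346 wells, 3180 were called fail. No reference gene scaling was applied.

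Of 96 assays 95 matched a mouse symbol, some through synonyms (Nur77 is Nr4a1 and Pd1 is Pdcd1); Il-12rb keeps its assay name. The unit means of genes found in 5% or more of the cells of either age were fitted in R 4.3.3 with limma 3.58.1 (lmFit, eBayes, duplicateCorrelation), with a threshold of 0.05 on the Benjamini-Hochberg adjusted p. The fit was tested on simulated data. Depth is the number of assays per well; the number of wells limits the precision of a share. Nothing states how the mice relate to litters or days. The p-values of the fits measure the spread between units, which holds that between animals and chips and that between the 2 tetramers of an animal. The interaction of age and tetramer compares units within animals, so its p rests mainly on the spread within them. No pairing links animals of the 2 ages.

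Named genes are those past the threshold, otherwise the 10 with the smallest p, and a list of 29 index genes, of which 21 had an assay; Ccr2, Ifit3, Zap70, Cd80 and other genes outside this rule were named after their values were seen or as list members. The members, lists and rules were chosen with earlier results of these data known. The tables were joined in pandas 2.3.3 (Python 3.11.15).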

Additional observations from a re-analysis of the deposited data

Results flagged for a closer look

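Among 54 groups of unit means examined, 2 units stood far from the rest of their age; chance alone gives about 1 in 20 groups, so that 2 are no more than chance gives. In wells with 20 or more assays, Socs3 was 5.31 in the 12-20 unit of the 13-week animal M2, with the other units of that age between 3.22 and 3.92. Cd3e was 6.99 in the 13-21 unit of the 13-week animal M3, with the others between 9.97 and 11.37; 7 of the 18 wells of that unit had no Cd3e and 6 had Cd86.

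The change of Ifngr1 with age differed between the tetramers, by 4.92 in wells with 20 or more assays and by 4.05 over all wells (13-21 minus 12-20). The change with age differed between lymph node and islets of the same animals for 6 genes in wells with 20 or more assays. Lymph node minus islets, as fitted with the animal as a block, was -3.93 for Cd274, -4.03 for Il4ra, -3.24 for Irf7, -3.24 for Nfkb1, 3.31 for Tnf and -3.63 for Tnfaip3, with a single 7-week animal behind the islet units. Over all wells 27 genes differed in this way, in a fit where 74 of the 79 genes were below 0.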

How the results depend on the processing

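The number of genes past 0.05 in wells with 20 or more assays, 0 as designed, was 3 with no replicate block, 3 with units weighted by their cells, 2 with a Ct limit of 26, 2 with no gene filter, 5 with units centred (3 higher, 2 lower), 5 with the assays per well as a covariate (4 higher, 1 lower), 4 on shares of cells detected, 1 in 13-21 units alone and 3 with at least 15 assays per well. Leaving out 1 animal gave 0 to 1. Socs3 was among the genes past 0.05 in 8 of 25 alternatives, Tnfrsf1a and Icam1 in 7 each. Over all wells the 0 became 8 with the assays per well as a covariate (4 higher, 4 lower) and stayed 0 whichever animal was left out. The interaction of age and tetramer, 1 gene in each fit, was 0 with no replicate block in both; leaving out 1 animal gave 0 to 1 in wells with 20 or more assays and 0 to 11 over all wells. That of age and tissue, 6 genes in wells with 20 or more assays, was 0 with no replicate block and 0 with units centred, and 0 to 18 when 1 animal was left out. Over all wells its 27 genes became 6 with no replicate block and 7 with units centred (2 higher, 5 lower), and 4 to 57 when 1 animal was left out. The block is the animal, and the 2 ages share no animal, so no pairing between them was possible. The difference in the share of wells with 20 or more assays ran from 3.14 to 25.5 percentage points when 1 animal was left out, and that in assays per well, 1.14, from -0.74 (without the 13-week animal M4) to 2.34. The cause of each shift was not tested. Each of the 10 genes with the smallest p kept its direction in every alternative that tested it in wells with 20 or more assays. They were chosen by their p in largely the same wells, so a kept direction adds no support. At its smallest size the difference was 0.14 for Cd86, -0.16 for Cd3e and -0.18 for Ifi44. The alternatives by Cd4 and Cd3e, by Cd86, Cd80, Cd40 and Cd8a, at a common chip threshold, without M10 and M11 and without the assays of wells with few assays were chosen after seeing the data, as were leave-outs of the interactions. With 3 animals an age, detection of a difference is limited by their number.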

Other observations

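Quality calls were uneven between assays in wells with 20 or more assays. Values with a Ct under 24 that were called fail made up 17.6% of such values at 13 weeks and 19.9% at 7 weeks over all assays. By gene they were 56.9 and 83.8% for Icam1, 47.9 and 66.7% for Tnfrsf1a, 29.6 and 51.5% for Irf1 and 21.1 and 44.8% for Stat3, with 7 weeks the higher in each. For Icos they were 43.3 and 38.9%, with 13 weeks the higher. Socs3 had 0 of 56 and 1 of 44, and Nr4a1, Cd3e, Ccr6, Ifi44 and Ccr7 had 0 at both ages.

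The chip thresholds of the 13-week animals ran from 0.0211 to 0.0270 and those of the 7-week animals from 0.0136 to 0.0269, the lowest being those of M10 and M11. The 13-21 wells reached 20 assays more often than the 12-20 wells at both ages: 54 of 70 (77.1%) against 29 of 72 (40.3%) at 13 weeks and 58.3% against 45.5% at 7 weeks, pooled over animals and not tested.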
